A study of Mus musculus with 12 samples.

Results

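The 10 genes described here carry the MHC class I pathway, and they were taken from the 39423 genes of the count table by name: the light chain B2m, the heavy chains H2-K1 and H2-D1, the transporter subunits Tap1 and Tap2, the loading chaperone Tapbp, the immunoproteasome subunits Psmb8, Psmb9 and Psmb10, and the transactivator Nlrc5. All 10 were found. The libraries come from 3T3-L1 cells, preadipocytes of the mouse that differentiate into fat cells when given DMI. DMI combines insulin with dexamethasone and the phosphodiesterase inhibitor 3-isobutyl-1-methylxanthine. All 4 groups were transfected with siRNA and then given DMI after reaching confluence: siCtrl 24 h and siCtrl 72 h received a nontargeted siRNA, and siPRMT1 24 h and siPRMT1 72 h an siRNA against the arginine methyltransferase PRMT1. Each group has 3 libraries, and nothing in the labels says whether these came from separate cultures, so p-values measure the spread between these libraries, which may be technical. No group is free of transfection or of DMI, and the siRNA used for sequencing is not named among the 3 that were designed.

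MHC class I molecules show fragments of the cell's own proteins at the cell surface, where cytotoxic T cells inspect them. The fragments are cut by the proteasome, carried into the endoplasmic reticulum by the transporter TAP1/TAP2, and loaded with the help of tapasin (Tapbp) onto a heavy chain held together with beta-2-microglobulin. Nearly all nucleated cells use the pathway at a low level, and interferons raise it in fibroblasts and many other cells, through IRF and STAT factors and the transactivator NLRC5, while the catalytic subunits of the proteasome are exchanged for their immunoproteasome forms.

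The libraries held 15116462 to 42357137 counts on genes. Prmt1 itself stood at 82.9, 83.4 and 91.3 FPKM (counts divided by the length of the gene and by the total of the library) in siCtrl 24 h and at 43.8, 38.6 and 41.4 in siPRMT1 24 h. At 72 h it stood at 111, 120 and 140 FPKM in siCtrl and at 62.0, 71.7 and 68.5 in siPRMT1, so knocked down cells kept 0.46 of the control level at 24 h and 0.54 at 72 h in the fitted model. The leukocyte marker Ptprc was at 0 in every library, and the summed level of all 10 leukocyte markers was 4.30 to 5.83 CPM (counts scaled by the library total only) in the 12 libraries. Within siCtrl 24 h, replicate 3 differed from the other libraries of its group by a chi-square per gene of 50.6 and 30.8, against 5.30 between the other pair, so values of the class I genes at 24 h that moved most without it are given both ways. A gene was called higher or lower at an adjusted p under 0.05 in edgeR's quasi-likelihood test and an absolute log2 fold change over 0.5.

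Most class I genes lie in the MHC on chromosome 17, and the count table holds further rows for them on other scaffolds of the assembly, named here A, B and C. On GRCm38, B2m lies on chromosome 2 from 122147687 to 122153082, Psmb10 on chromosome 8 from 105935728 to 105938454 and Nlrc5 on chromosome 8 from 94434354 to 94527272, and these 3 genes have 1 row each. The other 7 lie on chromosome 17 between 33919478 (Tapbp) and 35267497 (H2-D1) and have 3 or 4 rows each. Tapbp had 31.6% of its 4686 counts on the chromosome 17 row and 68.0% on scaffold B. Tap1 had 7.73% of its 388 counts on chromosome 17 and 74.2% on scaffold B. H2-K1 kept 91.4% of its 1922 counts on chromosome 17, H2-D1 77.8% of 6369 and Tap2 76.2% of 521. The named row alone therefore holds a minor part of the counts of Tap1 and Tapbp.

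Other genes of the region were split as well. Outside the 10 genes, 47 with such further rows and at least 100 counts lay in the same stretch, and the row with the most counts stood on chromosome 17 for 27, on scaffold A for 6, on scaffold B for 9 and on scaffold C for 5. Of the nonclassical class I genes, H2-T22 had 96.0% and H2-T23 94.0% of their counts on scaffold C, and H2-M3 had 94.2% on scaffold B. The split also moved between libraries. For H2-D1, scaffold C took 20.9% of the counts in siCtrl 24 h replicate 2 (Wilson 95% interval 17.6 to 24.6) and 18.3% in siPRMT1 24 h replicate 1 (15.9 to 21.1), and between 4.07% and 9.52% in the other libraries. These intervals cover counting error only. How reads that match several rows were counted is not given in the sources used here. Values of single rows, and sums of rows, are therefore uncertain for H2-K1, H2-D1 and the other MHC genes. Every comparison was run both on the named row and on the summed rows of each gene.

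**Figure D1:**
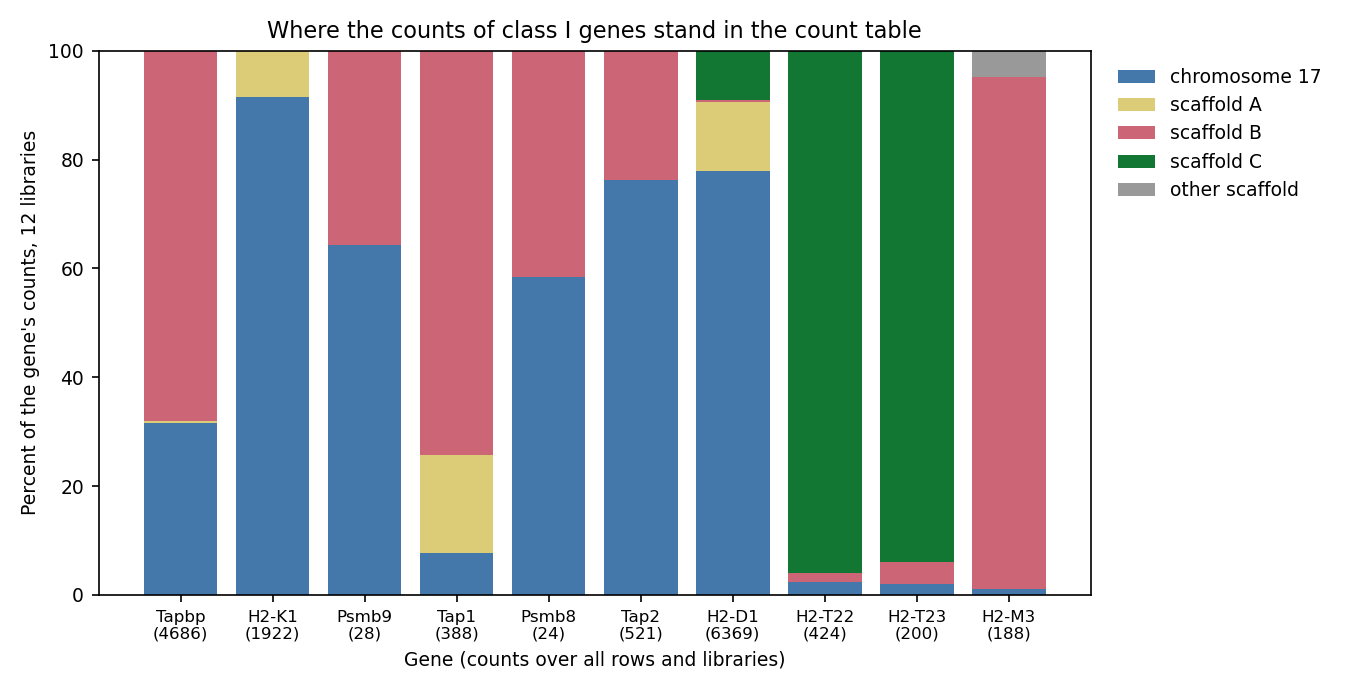
Share of the counts of each gene (y axis, percent, all 12 libraries together) that stands on chromosome 17 or on scaffold A, B, C or another scaffold, for the 7 MHC genes described here and 3 nonclassical class I genes, with the summed counts of each gene below its name. H2-K1 lies mainly on chromosome 17, Tapbp and Tap1 mainly on scaffold B, and H2-T22 and H2-T23 mainly on scaffold C.

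The light chain B2m had the highest mRNA level of the 10 genes. With all rows of a gene summed, the mean FPKM in siCtrl 24 h was 330.0 ± 32.8 (SD, n = 3) for B2m, 14.2 ± 3.75 for H2-D1, 8.07 ± 0.953 for Psmb10, 6.76 ± 1.29 for Tapbp, 3.41 ± 0.201 for H2-K1, 0.713 ± 0.119 for Tap2, 0.453 ± 0.0473 for Tap1 and 0.130 ± 0.0529 for Nlrc5. Libraries of neighbouring genes in this order overlapped for Psmb10 and Tapbp, and from Nlrc5 downward. In siCtrl 72 h, Psmb10 stood second at 18.9 ± 0.789 FPKM, above H2-D1 at 8.83 ± 0.769, with no overlap of their libraries. The same order held in siPRMT1 72 h, with 18.8 ± 1.75 for Psmb10 and 8.83 ± 1.34 for H2-D1. Psmb8 and Psmb9 stood lowest in each group. B2m, Psmb10 and Nlrc5 have 1 row each, and the other genes several. The order of levels can therefore depend on how reads that match several rows were counted.

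**Figure D2:**
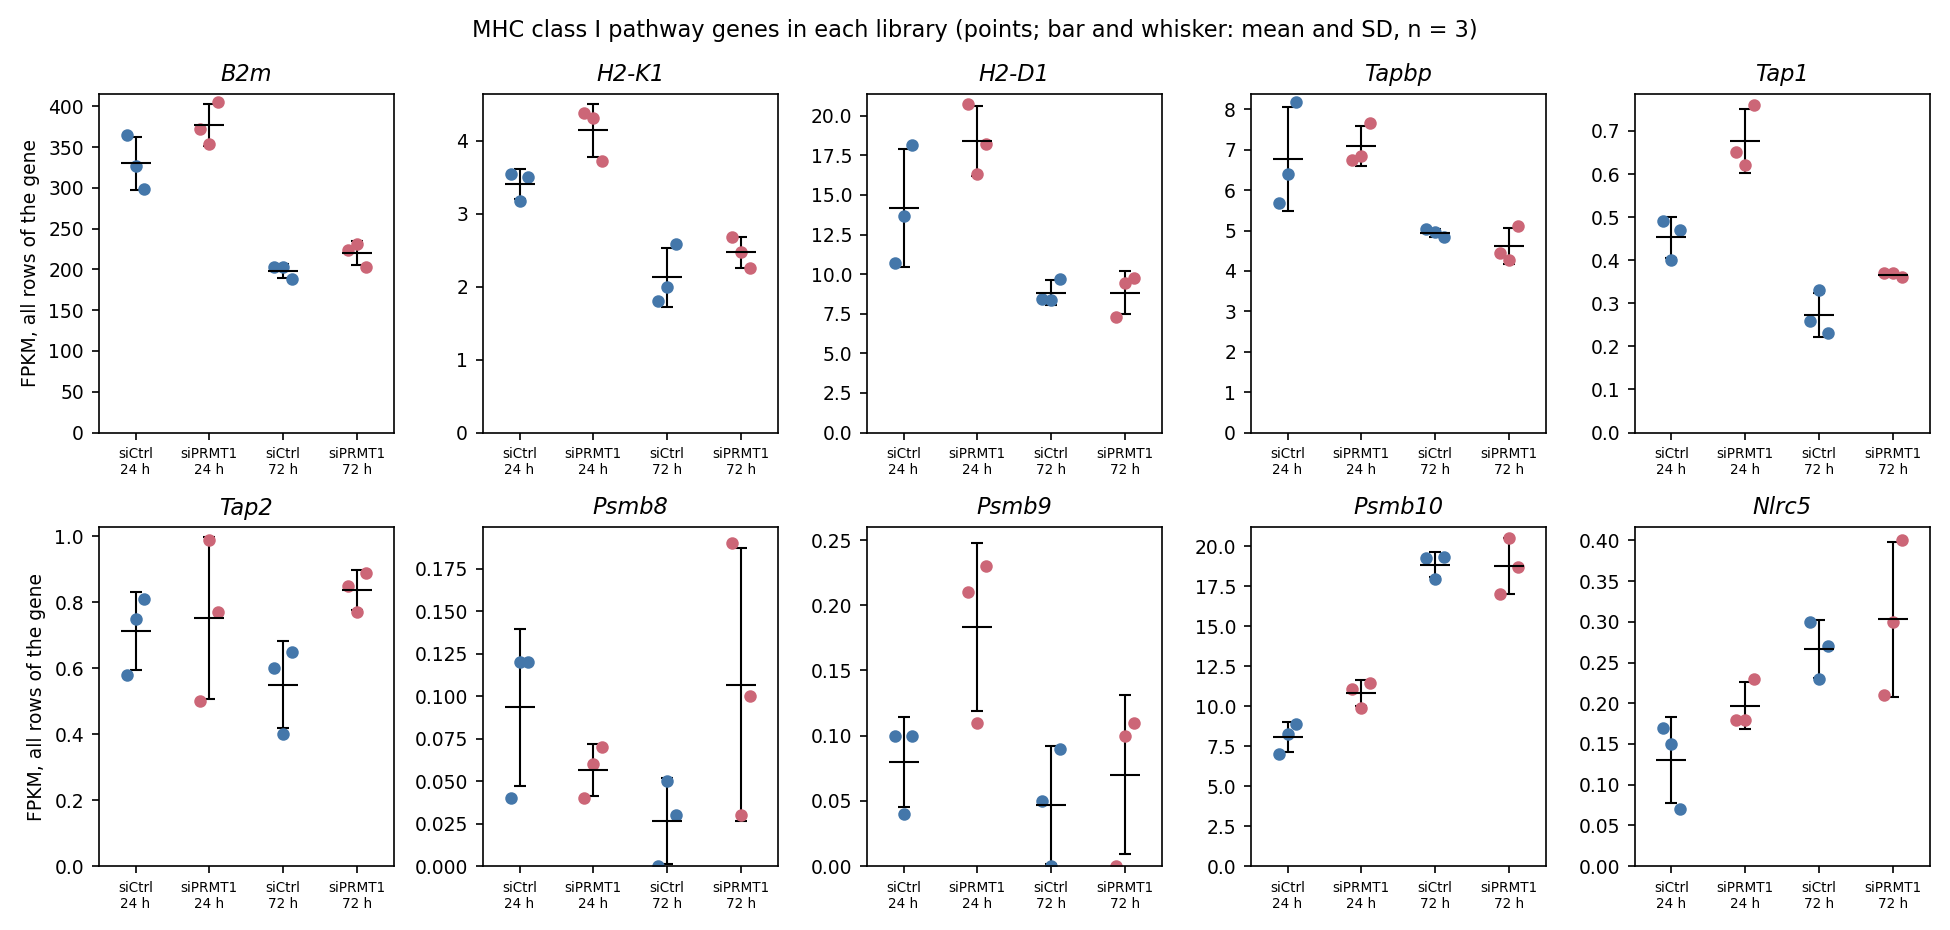
FPKM of each gene (y axis, linear, from 0, a scale of its own in each panel) in the 12 libraries, all rows of a gene summed; points are libraries, the bar and whisker the mean and SD of 3 libraries. B2m, H2-K1, H2-D1, Tapbp and Tap1 lie lower at 72 h than at 24 h in both arms, and Psmb10 lies higher.

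The promoters of the light and heavy chains are shown because these genes carry known interferon and NF-kappaB response elements. The windows run from 250 bases before to 50 bases after the RefSeq start on GRCm38.p6, 5′ to 3′ on the strand of the gene. They lie at chr2:122147437-122147736 on the plus strand for B2m, chr17:34000298-34000597 on the minus strand for H2-K1 (the first of its 2 RefSeq starts) and chr17:35262844-35263143 on the plus strand for H2-D1. The window of Psmb10, at chr8:105938343-105938642 on the minus strand, is shown as the one of this set with no match. Its RefSeq start lies inside the gene as listed with the counts, whose 5′ end is 105938454. Fewer than 250 bases before that end were thus searched. Capitals mark matches on either strand to an interferon response core (GAAANNGAAA), a STAT site (TTCNNNGAA), a kappaB site (GGGANNNNCC) or a CCAAT box (CCAAT).
B2m: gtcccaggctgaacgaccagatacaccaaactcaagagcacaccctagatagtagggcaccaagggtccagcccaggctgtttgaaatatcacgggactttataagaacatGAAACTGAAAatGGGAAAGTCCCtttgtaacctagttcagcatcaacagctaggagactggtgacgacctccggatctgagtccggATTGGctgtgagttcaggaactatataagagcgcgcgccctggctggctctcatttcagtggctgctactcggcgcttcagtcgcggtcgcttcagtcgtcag
H2-K1: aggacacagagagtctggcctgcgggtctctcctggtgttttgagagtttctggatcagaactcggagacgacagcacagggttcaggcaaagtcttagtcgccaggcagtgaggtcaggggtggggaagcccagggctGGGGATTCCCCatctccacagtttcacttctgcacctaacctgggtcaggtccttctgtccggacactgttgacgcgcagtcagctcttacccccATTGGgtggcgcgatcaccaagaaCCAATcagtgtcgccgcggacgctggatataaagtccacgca
H2-D1: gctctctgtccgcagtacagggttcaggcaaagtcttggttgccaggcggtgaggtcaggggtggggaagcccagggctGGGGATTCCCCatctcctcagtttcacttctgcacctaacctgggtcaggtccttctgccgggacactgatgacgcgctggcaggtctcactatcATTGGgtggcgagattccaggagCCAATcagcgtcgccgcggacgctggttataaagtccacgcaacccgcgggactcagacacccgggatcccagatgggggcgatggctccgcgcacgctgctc
Psmb10: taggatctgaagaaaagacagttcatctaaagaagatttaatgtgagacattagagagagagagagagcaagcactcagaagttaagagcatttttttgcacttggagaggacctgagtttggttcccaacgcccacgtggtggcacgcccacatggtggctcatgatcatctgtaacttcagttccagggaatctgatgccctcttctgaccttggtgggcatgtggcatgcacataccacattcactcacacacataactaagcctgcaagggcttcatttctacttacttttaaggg

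In B2m the interferon core GAAACTGAAA started 139 bases before the start, with a pair of overlapping kappaB matches starting 127 and 126 bases before it and a CCAAT box 53 bases before it. H2-K1 and H2-D1 shared the letters GGGGATTCCCC, which hold overlapping kappaB matches on both strands, with the first match 111 and 171 bases before the start. Of the 32851 RefSeq promoter windows of this length, 3.44% held the interferon core, 8.30% the STAT site, 20.7% the kappaB site and 37.4% a CCAAT box. Of the 10 genes, 8 had a window in the table. The exact letters of the interferon core occurred in none of the 7 besides B2m. The search marked exact matches only, so an interferon element with other letters would stay unmarked, also in H2-K1 and H2-D1. Psmb8 held a STAT match 97 bases before its start. Tap1 and Psmb9 are transcribed in opposite directions from starts 226 bases apart, and their windows shared 275 bases. A match is a description of the letters and not evidence of binding.

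PRMT1 knockdown was compared with siCtrl at each time. Of the 10 genes, 7 passed the filter on low counts on their named rows, and Tap1, Psmb8 and Psmb9 did not. At 24 h, 0 of the 7 were called higher and 0 lower, against 1.95% of the 13689 genes tested called higher and 1.61% called lower. At 72 h again 0 were called in either direction, against 2.84% higher and 3.8% lower of 14039 genes. At an unadjusted p under 0.05, 1 of the 7 passed at 24 h and 0 at 72 h. The median log2 fold change of the 7 was 0.23 at 24 h and 0.14 at 72 h, beside 0.0096 and 0.0073 over all genes tested, and 5 of the 7 were above 0 at each time. With the rows summed, Tap1 passed the filter too, and the count of calls stayed at 0 of 8 at both times. At 24 h the 8 log2 fold changes had a median of 0.27, beside -0.0089 over all genes. All 8 were above 0 at 24 h, and 5 at 72 h. An unadjusted p under 0.05 in edgeR's test was reached by 2 of the 8 at 24 h and 1 at 72 h. The shares of all genes under that p, or above 0, were not computed. The counts under that p and above 0 are therefore not a result about these genes. DESeq2 also called 0 of the 7 at either time. No test was made over the group.

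B2m, the light chain that every class I molecule needs, stood at 364, 327 and 299 FPKM in siCtrl 24 h and at 372, 354 and 405 in siPRMT1 24 h. At 72 h it stood at 203, 203 and 188 in siCtrl and at 224, 232 and 203 in siPRMT1. The siPRMT1 libraries were on average the higher ones at both times, with 1 siCtrl library reaching into their range at 24 h. The log2 fold change was 0.14 at 24 h (95% interval -0.0634 to 0.34, adjusted p = 0.38) and 0.14 at 72 h (-0.0109 to 0.30, adjusted p = 0.192). Without siCtrl 24 h replicate 3 the value at 24 h was 0.065 (adjusted p = 0.475).

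H2-K1, a classical heavy chain, stood on its named row at 3.06, 2.87 and 3.07 FPKM in siCtrl 24 h and at 4, 3.73 and 3.24 in siPRMT1 24 h. All siPRMT1 libraries lay above all siCtrl libraries, and the log2 fold change of 0.23 (95% interval -0.0398 to 0.51) did not pass the test (adjusted p = 0.271), nor did that of 0.24 without siCtrl 24 h replicate 3 (adjusted p = 0.17). At 72 h the values were 1.69, 1.92 and 2.27 in siCtrl and 2.45, 2.34 and 1.94 in siPRMT1, which overlap, with a log2 fold change of 0.18 (adjusted p = 0.457).

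H2-D1, the other classical heavy chain, stood at 8.84, 9.57 and 14.8 FPKM in siCtrl 24 h and at 14.3, 12.8 and 14.1 in siPRMT1 24 h. Replicate 3 of siCtrl lay above all the siPRMT1 libraries, while the other siCtrl libraries lay below them. The log2 fold change was 0.27 (95% interval -0.14 to 0.67, adjusted p = 0.407). Without siCtrl 24 h replicate 3 it was 0.52 and passed both thresholds (edgeR adjusted p = 0.000905), the only call among the 7 genes in any left-out library at 24 h. Summing the rows gave 10.7, 13.7 and 18.2 FPKM in siCtrl and 20.7, 16.3 and 18.2 in siPRMT1, with a log2 fold change of 0.32 (adjusted p = 0.302). At 72 h H2-D1 stood at 6.77, 6.48 and 7.81 FPKM in siCtrl and at 5.9, 7.66 and 7.97 in siPRMT1, a log2 fold change of 0.02 (95% interval -0.24 to 0.28, adjusted p = 0.92).

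Among the transport and loading genes, Tap1 could be tested only with its rows summed, where it stood at 0.49, 0.4 and 0.47 FPKM in siCtrl 24 h and at 0.65, 0.62 and 0.76 in siPRMT1 24 h. These libraries held 25 to 60 counts each. The groups did not overlap, and the log2 fold change of 0.51 (SE 0.173, 95% interval 0.11 to 0.91) missed the threshold with an adjusted p of 0.109 in edgeR's test. At 72 h the groups were again apart, with 0.26, 0.33 and 0.23 FPKM in siCtrl and 0.37, 0.37 and 0.36 in siPRMT1, and a log2 fold change of 0.44 (adjusted p = 0.238).

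Tap2, the partner subunit, overlapped at 24 h, with 0.49, 0.66 and 0.55 FPKM in siCtrl and 0.33, 0.69 and 0.6 in siPRMT1 on its named row, and a log2 fold change of -0.092 (adjusted p = 0.881), or -0.096 without siCtrl 24 h replicate 3 (adjusted p = 0.829). At 72 h siCtrl stood at 0.48, 0.24 and 0.55 and siPRMT1 at 0.61, 0.68 and 0.6, apart from each other. The log2 fold change at 72 h was 0.50 (95% interval -0.0294 to 1.03, adjusted p = 0.185), and 0.56 with the rows summed (0.12 to 0.99, adjusted p = 0.075). It rests on 9 to 44 counts a library on the named row, where it was 0.28 without siCtrl 72 h replicate 2 and 0.75 without siCtrl 72 h replicate 3 (adjusted p = 0.509 and 0.111).

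Tapbp, tapasin, stood on its named row at 2.16, 1.99 and 3.03 FPKM in siCtrl 24 h and at 1.95, 1.79 and 2.34 in siPRMT1 24 h, a log2 fold change of -0.28 (95% interval -0.69 to 0.12, adjusted p = 0.374), or -0.10 without siCtrl 24 h replicate 3 (adjusted p = 0.602). The named row and the summed rows gave different values, since with the rows summed the same libraries stood at 5.69, 6.4 and 8.19 and at 6.75, 6.85 and 7.67 FPKM, a log2 fold change of 0.0085 (95% interval -0.29 to 0.31). At 72 h the log2 fold change was -0.086 on the named row and -0.10 with the rows summed.

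Psmb10, an immunoproteasome subunit, came nearest to the threshold at 24 h, with 7.04, 8.25 and 8.92 FPKM in siCtrl and 11.1, 9.88 and 11.4 in siPRMT1. The groups did not overlap, and the log2 fold change of 0.38 (SE 0.114, 95% interval 0.12 to 0.64) had an unadjusted p of 0.00985 and an adjusted p of 0.0835 in edgeR's test. Without siCtrl 24 h replicate 3 the log2 fold change was 0.45 with an adjusted p of 0.00561, still under the threshold on the fold. With all 12 libraries in 1 edgeR model the log2 fold change at 24 h was 0.35 (adjusted p = 0.0432), also under that threshold. At 72 h the values were 19.3, 18 and 19.4 FPKM in siCtrl and 17.1, 20.5 and 18.7 in siPRMT1, and the groups overlapped, with a log2 fold change of -0.013 (95% interval -0.20 to 0.17).

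The other immunoproteasome subunits were near the limit of detection. Psmb8 had 14 counts over all 12 libraries on its named row, with 4 libraries at 0, and 24 counts over all rows. Psmb9 had 18 counts on its named row and 28 over all rows. At 0 counts a true level worth 3 counts remains possible (counting error only). For Psmb8, 3 counts are worth 0.0579 to 0.162 FPKM over the depths of all 12 libraries, not only of the 4 at 0. A difference between the groups was not detectable with so few counts. Both genes have 4 rows, and how reads that match several rows were counted is not given in the sources used here. Their constitutive counterparts were abundant: Psmb5, which Psmb8 replaces, stood at 58.8 to 154 FPKM in the 12 libraries, and Psmb7, which Psmb10 replaces, at 160 to 251. Psmb6, the counterpart of Psmb9, had 1.04% of its 5503 counts on its own row, and with its rows summed stood at 12.03 to 27.2 FPKM.

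Nlrc5, the transactivator of class I genes, stood at 0.17, 0.15 and 0.07 FPKM in siCtrl 24 h and at 0.18, 0.18 and 0.23 in siPRMT1 24 h. The groups were narrowly apart, and the log2 fold change of 0.49 had a wide interval (-0.22 to 1.202, adjusted p = 0.382) on 11 to 58 counts a library. It was 0.21 without siCtrl 24 h replicate 3, the library lowest in Nlrc5, and 0.81 without siCtrl 24 h replicate 1 (adjusted p = 0.508 and 0.224). At 72 h, siCtrl stood at 0.3, 0.23 and 0.27 and siPRMT1 at 0.21, 0.3 and 0.4, which overlap (log2 fold change 0.19, adjusted p = 0.604).

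Counted over the 7 genes on TMM-normalised CPM, all siPRMT1 libraries lay above all siCtrl libraries for 3 at 24 h (H2-K1, Psmb10 and Nlrc5), against 15.5% of all genes tested, and for 1 at 72 h (Tap2), against 16.8%. With the rows summed the genes so placed were Tap1, Psmb10 and Nlrc5 at 24 h and Tap1 and Tap2 at 72 h. The intervals at 24 h reach above a log2 fold change of 0.5 for H2-K1, H2-D1, Tap2, Psmb10 and Nlrc5, so these libraries allow a rise of that size for them, while for B2m the interval ends at 0.34.

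**Figure D3:**
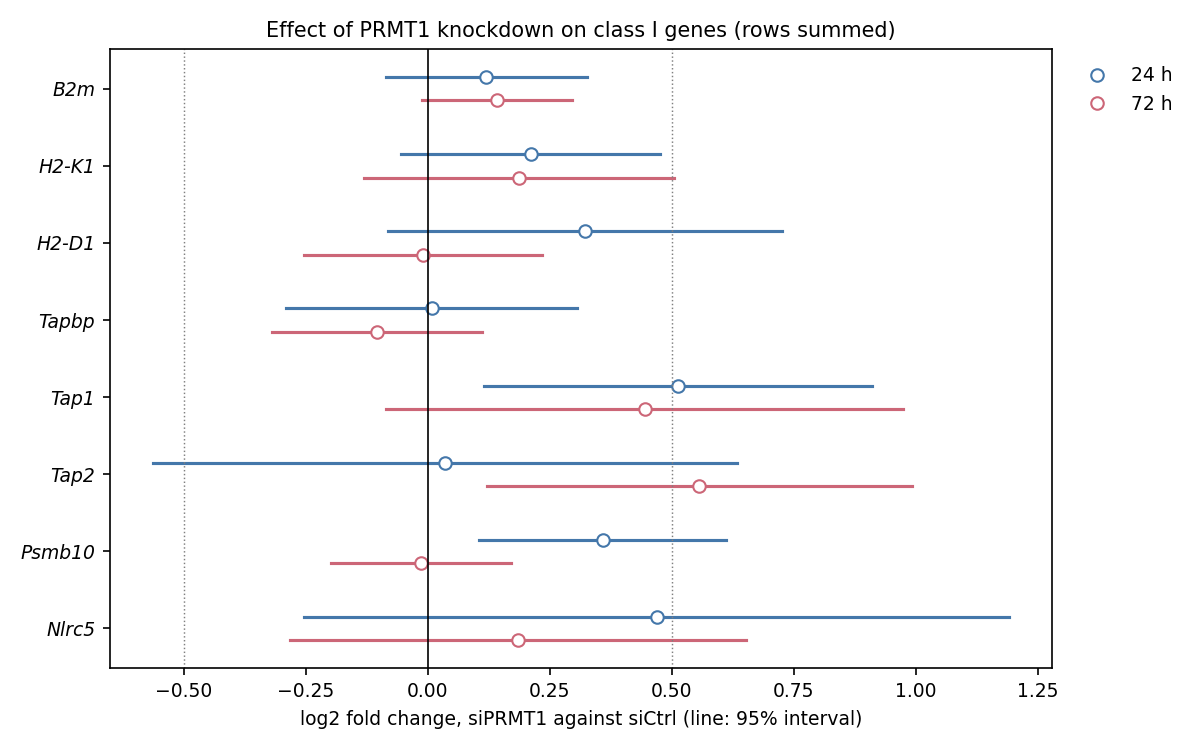
Log2 fold change of siPRMT1 against siCtrl (x axis) with its 95% interval for the 8 genes that passed the filter with their rows summed, at 24 h and at 72 h; open points were not called, and dotted lines mark the threshold on the fold change. No point is filled, and the intervals of Tap1 and Psmb10 at 24 h and Tap2 at 72 h lie above 0.

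Whether knockdown acted differently at the 2 times was tested in 1 model over all 12 libraries, as the effect at 72 h minus the effect at 24 h. Here 0 of the 7 genes were called, against 4.77% called higher and 3.47% called lower of 14612 genes. At an unadjusted p under 0.05, for which the share of all genes was not computed, 1 of the 7 passed. This was Psmb10, with a difference of -0.37 (95% interval -0.68 to -0.0608, edgeR unadjusted p = 0.0223, adjusted p = 0.112). Without siCtrl 24 h replicate 3 it was -0.48 with an adjusted p of 0.0146, under the threshold on the fold. For H2-D1 the difference was -0.22 (adjusted p = 0.607) with all libraries and -0.52 (adjusted p = 0.025, called lower) without siCtrl 24 h replicate 3.

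The larger differences in class I genes were between the times. From 24 h to 72 h of DMI, B2m, H2-K1, H2-D1 and Tapbp fell and Psmb10 and Nlrc5 rose, in siCtrl and in siPRMT1 cells alike. In siCtrl, 4 of the 7 genes tested were called lower and 2 higher, against 20.4% lower and 22.7% higher of 13829 genes. In siPRMT1 the same 4 were called lower and the same 2 higher, against 17.4% lower and 19% higher of 14224 genes. Calls were thus common among all genes in these comparisons. The median log2 fold change of the 7 was -0.68 in siCtrl and -0.53 in siPRMT1, beside -0.0042 and 0.0022 over all genes. A fall over time was not particular to them. Of listed interferon-responsive genes, 13 of 16 tested were called lower and 1 higher in siCtrl, with a median of -1.16. In siPRMT1, 15 of 17 were called lower and 0 higher, with a median of -1.49. Of 28 regulators of class I genes, 10 were called lower and 5 higher in siCtrl, and 14 and 4 in siPRMT1. Differences between these lists and the 7 genes were not tested.

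B2m went from 299 to 364 FPKM in siCtrl 24 h to 188 to 203 in siCtrl 72 h, a log2 fold change of -0.81 (SE 0.0887, edgeR adjusted p = 3.17e-05), and its log2 fold change in siPRMT1 was -0.79 (adjusted p = 1.6e-07). The 24 h and 72 h libraries were fully apart in both arms. H2-K1 fell by 0.68 on the log2 scale in siCtrl (adjusted p = 0.00331) and by 0.72 in siPRMT1 (adjusted p = 0.000221). H2-D1 fell by 0.72 in siCtrl (adjusted p = 0.0095) and by 0.94 in siPRMT1 (adjusted p = 2.79e-06). Without siCtrl 24 h replicate 3 the value of H2-D1 in siCtrl was -0.45 (adjusted p = 0.00205), under the threshold on the fold change.

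Tapbp fell by 0.75 in siCtrl (edgeR adjusted p = 0.0072) and by 0.53 in siPRMT1 (adjusted p = 0.0046) on its named row, and its log2 fold changes were -0.52 and -0.63 with the rows summed. Its call in siPRMT1 was lost without siPRMT1 24 h replicate 3 (-0.43) or siPRMT1 72 h replicate 2 (-0.44), where the fold was under the threshold. Tap1, with its rows summed, fell by 0.79 in siCtrl (adjusted p = 0.0158) and by 0.88 in siPRMT1 (adjusted p = 0.000888). Tap2 was not called in either arm, with log2 fold changes of -0.41 (95% interval -1.04 to 0.23) and 0.21 (-0.31 to 0.72), so that the intervals allow both a fall and a rise.

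Over the same time, 6 of 18 tested genes of the constitutive proteasome and its activators were called higher in siCtrl, and 0 lower. In siPRMT1, 3 were called higher and 0 lower. The shares called higher over all genes were 22.7% and 19%. Psmb5 had a mean of 73.9 FPKM in siCtrl 24 h and 141 in siCtrl 72 h. A rise was thus not particular to Psmb10. Psmb10 moved the other way from the chains, Tapbp and Tap1. It went from 7.04 to 8.92 FPKM at 24 h to 18 to 19.4 at 72 h in siCtrl, a log2 fold change of 1.16 (SE 0.117, edgeR adjusted p = 1.78e-05), and from 9.88 to 11.4 to 17.1 to 20.5 in siPRMT1, a log2 fold change of 0.79 (SE 0.0880, adjusted p = 3.12e-06). Nlrc5 rose by 0.89 in siCtrl (SE 0.298, adjusted p = 0.0261) and by 0.60 in siPRMT1 (SE 0.226, adjusted p = 0.0326), where its groups overlapped. The calls of Nlrc5 did not hold with DESeq2 (adjusted p = 0.05 in siCtrl, at the threshold and not under it, and 0.109 in siPRMT1). They were also lost without any 1 of the siCtrl 72 h libraries (adjusted p from 0.0677 to 0.12), and without siPRMT1 24 h replicate 1 or 2 or siPRMT1 72 h replicate 2 or 3 (adjusted p from 0.0631 to 0.205), and without siPRMT1 72 h replicate 3 the log2 fold change was 0.345. Without siCtrl 24 h replicate 3 the value in siCtrl was 0.61 (adjusted p = 0.0244).

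**Figure D4:**
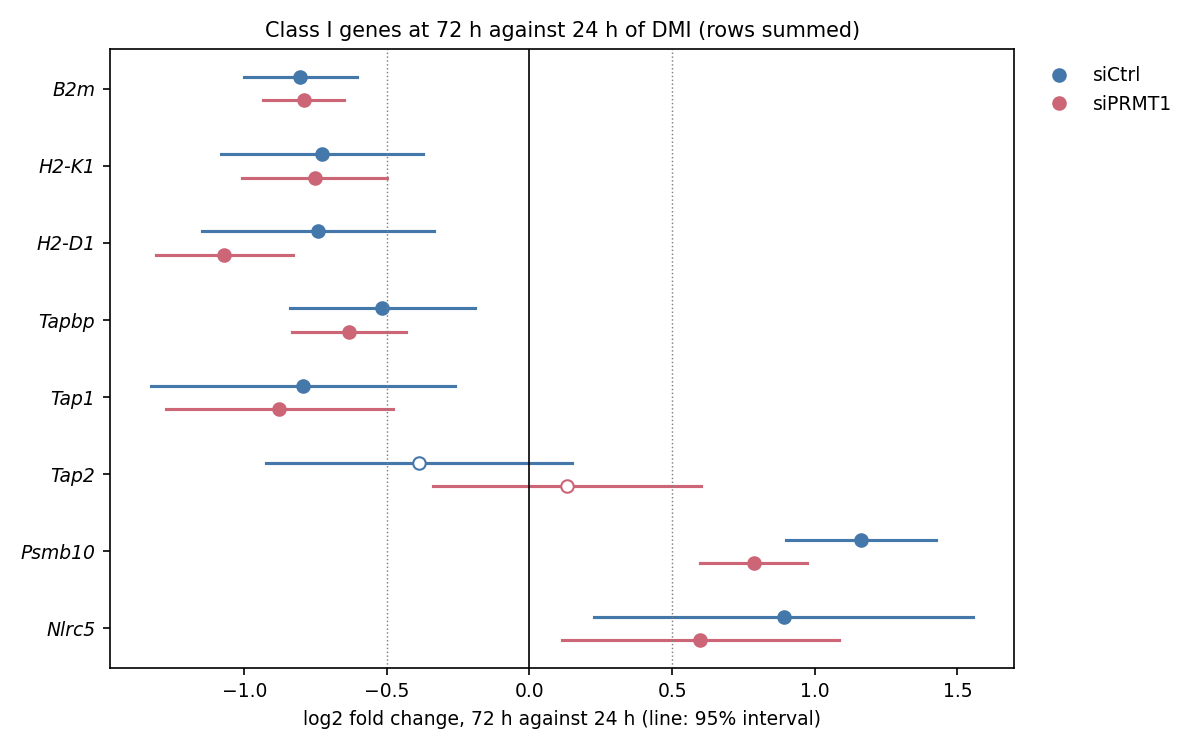
Log2 fold change of 72 h against 24 h of DMI (x axis) with its 95% interval for the 8 genes tested with their rows summed, in siCtrl and in siPRMT1 cells; filled points were called, open points were not, and dotted lines mark the threshold on the fold change. Points of B2m, H2-K1, H2-D1, Tapbp and Tap1 lie below 0 and those of Psmb10 and Nlrc5 above 0 in both arms.

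Cell type markers moved with the time as well. The summed level of 6 adipocyte markers was 389 to 519 CPM in the 24 h libraries and 3346 to 4664 in the 72 h libraries, and that of 6 preadipocyte and fibroblast markers 4973 to 5717 and 2542 to 3486. Their part in the change of the class I genes was not tested, and in these bulk libraries fewer cells of a type and less RNA per cell cannot be told apart. Adipocyte markers differed between the arms too, with 496 to 519 CPM in siCtrl 24 h against 389 to 430 in siPRMT1 24 h and 4489 to 4664 in siCtrl 72 h against 3346 to 3610 in siPRMT1 72 h.

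The other genes of the pathway are read against the same shares of all genes tested: 1.95% higher and 1.61% lower at 24 h, and 2.84% higher and 3.8% lower at 72 h. Of 9 further loading genes of the endoplasmic reticulum, among them calreticulin and ERp57 (Pdia3), 0 were called at 24 h or 72 h, with median log2 fold changes of -0.13 and 0.062. Of 18 tested genes of the constitutive proteasome and its activators, 0 were called at either time. At those shares, 0 calls in lists of this length are not a result about their genes. Of the heavy chains outside the classical pair, 4 of 20 were tested, and 7 were at 0 in every library. Among these 4, Fcgrt, the neonatal Fc receptor that carries IgG, was called lower at 24 h, with a log2 fold change of -0.79 (SE 0.128, edgeR adjusted p = 0.0121), and Cd1d1, which presents lipids, was called lower at 72 h, with -0.60 (SE 0.105, adjusted p = 0.00119).

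Of 28 tested regulators of class I genes, 3 were called higher and 1 lower at 24 h (1.95% and 1.61% of all genes), and 0 at 72 h. Those higher were Stat2 (log2 fold change 0.64, edgeR adjusted p = 0.00566) and Irf9 (0.60, adjusted p = 0.0158), partners in the type I interferon response, and Socs1, a feedback inhibitor of cytokine signalling (0.70, adjusted p = 0.0265), which was named after its values were seen. Ifngr1, a receptor chain for interferon gamma, was lower (-0.55, adjusted p = 0.00518). The calls of Fcgrt, Irf9, Socs1 and Cd74 at 24 h were lost in some fits without 1 library, as given with the processing alternatives.

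Other interferon-responsive genes were called at both times. This list and the class I genes were chosen with earlier results of these data known. Of 20 genes known to respond to interferon, 17 were tested at 24 h and 13 were called higher, with a median log2 fold change of 1.36, and 16 were tested at 72 h and 11 called higher, with a median of 0.81. None was called lower. Examples at 72 h were Ifit1 (log2 fold change 1.40, edgeR adjusted p = 7.12e-05), Ifi44 (1.96, adjusted p = 0.000228) and the guanylate binding protein Gbp2 (0.97, adjusted p = 0.000633). At 24 h those with the smallest p were Rtp4 (2.06), Oasl2 (1.48) and the chemokine Cxcl10 (1.74). The summed level of the 20 genes was 120 to 131 CPM in siCtrl 24 h and 220 to 292 in siPRMT1 24 h. The difference between these genes and the class I genes was not tested. At the shares of all genes called, an absence of calls among so few class I genes is not a result about them. Of 10 interferon genes, 9 were in the table, and together they held 12 counts over the 12 libraries, so no interferon gene could be tested.

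Of the class II genes, 5 of 12 were at 0 in every library, and Cd74, the invariant chain, was called higher at 24 h (log2 fold change 0.59, edgeR adjusted p = 0.042) and at 72 h (1.33, adjusted p = 0.00221). The call at 24 h was lost without any 1 of 5 of the 6 libraries, all but siCtrl 24 h replicate 3 (adjusted p = 0.0944 to 0.173). Its level was low, with a mean of 0.936 CPM in siCtrl 72 h and 2.36 in siPRMT1 72 h. Of the leukocyte markers, Ptprc was at 0 in every library, while Cd68 (671 counts in all), Itgam (438), Csf1r (157) and Lyz2 (120) had counts in each of the 12. Their summed level with the rest of the list was 4.48 to 5.15 CPM in siCtrl 24 h and 5.25 to 5.83 in siPRMT1 24 h, and 4.30 to 4.90 and 4.64 to 5.31 at 72 h. Their part in the difference of Cd74 was not tested.

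As a description, each gene was compared with the mean of the 7 class I genes, each centred on the log2 scale, across the 12 libraries. Among the 12461 genes averaging 1 CPM or more, those with the most similar course were Zfp566 (Pearson r 0.943), 1110038B12Rik_3 (0.935), Dtnb (0.909), Sp100 (0.906), Med30 (0.905), Rbm43 (0.904), Gm10747 (0.902) and Apol9a (0.901). Over the deviations from the 4 group means their r was 0.713 to 0.908. 1110038B12Rik_3 is 1 of 4 rows of a gene in the same MHC stretch, so its value is that of a single row. The genes share the group structure and the differing depths of the libraries, and no p is given. The members of the mean did not share 1 course: r with the mean was 0.79 for H2-D1, 0.717 for H2-K1 and 0.709 for B2m, 0.527 for Tapbp and 0.526 for Tap2, and -0.188 for Nlrc5 and -0.523 for Psmb10.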

How the data were processed

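RNA sequencing libraries of 12 samples were analysed. Per the labels, cutadapt 1.11, HISAT2 2.1.0 and RSEM 1.2.6 are listed in the submitters' processing notes without roles, with mm10 as the build. The counting tool, the strand setting and the handling of reads that match several places are not given in the sources used here. The authors deposited whole-number counts per gene without normalization, and FPKM computed by the authors from these counts, a listed gene length and the library total. Recomputed values differed from the deposited FPKM by at most 0.005. Rows with a number suffix made up 2266 of 39423 and 0.612% of the counts.

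Counts were tested with edgeR 4.0.16 in R 4.3.3: TMM normalization, filterByExpr, the quasi-likelihood test and Benjamini-Hochberg adjustment over all genes tested, in the 6 libraries of a comparison, or all 12 for the interaction. Calls needed an adjusted p under 0.05 and a log2 fold change beyond 0.5 in size. Standard errors were derived from the F statistic and the log2 fold change. FPKM was used for levels only, without a test. The fits were tested on simulated data. Alternatives were DESeq2 1.42.0, RLE normalization, no filter, at least 10 counts in every library, no threshold on the fold change, all 12 libraries in 1 model, the replicate number as a block, each library left out, and, chosen after seeing the data, the rows of a gene summed. Wilson intervals came from SciPy.

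The genes described and the gene lists were chosen with earlier results of these data known. Genes named are Prmt1, the 10 class I genes, up to 3 called genes with the smallest p of each list at each time, Psmb5, Psmb6 and Psmb7, and the 8 genes of most similar course. Promoters are RefSeq windows.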

Additional observations from a re-analysis of the deposited data

Results flagged for a closer look

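For 7 genes of the lists around the class I pathway the knockdown effect differed between the times by the interaction test over all 12 libraries, given as the log2 fold change at 72 h minus that at 24 h. On named rows they were 3 of 4 tested heavy chains outside the classical pair, 1 of 18 proteasome genes and 3 of 17 interferon-responsive genes. The shares over all genes were 4.77% called higher and 3.47% called lower. With the rows summed, 19 proteasome genes were tested, and Psmb6 was called lower beside Psmb1, which was called higher. The named row of Psmb6 held 1.04% of its counts. Of 7 heavy chains then tested, 2 were called higher and 1 lower. The class I genes themselves gave no such call with all libraries.

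Fcgrt differed by 0.61 (SE 0.160, edgeR adjusted p = 0.022), with -0.79 at 24 h and -0.20 at 72 h. Its call was lost without siCtrl 24 h replicate 3 (0.41, under the threshold on the fold), siPRMT1 24 h replicate 1 (adjusted p = 0.0517) or replicate 3 (0.0531), or siPRMT1 72 h replicate 2 (0.0579). Cd1d1 differed by -0.75 (SE 0.137, edgeR adjusted p = 0.00283), with 0.18 at 24 h and -0.60 at 72 h, and kept values from -0.83 to -0.70 with each library left out. Rtp4 differed by -2.08 (SE 0.224, edgeR adjusted p = 4.46e-05), with 2.06 at 24 h and -0.045 at 72 h, and kept values from -2.25 to -2.01 with each library left out. In siPRMT1 24 h, the mean level of Rtp4 was 8.40 CPM, against 1.97 in siCtrl 24 h.

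The other 4 were named after their values were seen. Mr1, which presents metabolites, differed by 0.57 (edgeR adjusted p = 0.0261), with -0.24 at 24 h and 0.31 at 72 h, and its call was lost in 7 of 12 fits without 1 library (highest adjusted p = 0.0722) and without a filter on low counts (0.0523). Psmb1, a constitutive proteasome subunit, differed by 0.57 (adjusted p = 0.0074), with -0.38 and 0.18, and fell under the threshold on the fold without siPRMT1 72 h replicate 1 (0.49). Bst2 differed by -0.79 (adjusted p = 0.0328), with 1.39 and 0.58, and its call was lost in 7 of 12 such fits (highest adjusted p = 0.0977). Usp18 differed by -1.001 (adjusted p = 0.0329), with 1.49 and 0.465, and its call was lost in 8 of 12 (highest adjusted p = 0.0988).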

How the results depend on the processing

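The knockdown gave 0 calls among the class I genes under every alternative run on all 6 libraries of a time. With 1 library left out, the number called higher at 24 h ran from 0 to 1, the number called lower in the interaction from 0 to 1, and each other knockdown or interaction count stayed at 0. Both exceptions are H2-D1 without siCtrl 24 h replicate 3. Over time, the number called higher was 1 with DESeq2 in both arms and 1 in siPRMT1 with all 12 libraries in 1 model, because Nlrc5 was lost; with 1 library left out it ran from 1 to 2, and the number called lower from 3 to 4.

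These directions turned, all for values that were not called. With rows summed, they were Tap2 (0.035) and Tapbp (0.0085) at 24 h, H2-D1 at 72 h (-0.0095) and the interaction of Tapbp (-0.11). The Tapbp values had been -0.28 and 0.22 on the named row. Without a filter they were Psmb10 at 72 h (0.0030) and the interaction of H2-K1 (0.0095). With 1 library left out, Tap2 at 24 h ran from -0.35 to 0.13; at 72 h H2-D1 ran from -0.066 to 0.13, Tapbp from -0.19 to 0.016, Psmb10 from -0.076 to 0.043, Nlrc5 from -0.073 to 0.38 and Rtp4 from -0.18 to 0.028; the interaction of B2m ran from -0.051 to 0.077 and that of H2-K1 from -0.14 to 0.10; Tap2 over time in siPRMT1 ran from -0.039 to 0.43. H2-K1 at 72 h kept its direction and ran from 0.060 to 0.31.

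Among genes outside the 10, Irf9 lost its call at 24 h without siCtrl replicate 2 (adjusted p = 0.0772) or siPRMT1 replicate 2 (0.0669) or 3 (0.0854). Fcgrt lost it without any siPRMT1 24 h library (0.0581 to 0.0799). Socs1 (0.065 to 0.124) and Cd74 (0.0944 to 0.173) lost it without any 1 of the 24 h libraries other than siCtrl replicate 3.

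The background moved most at 24 h: 267 genes were higher and 220 lower, against 441 and 599 without a threshold on the fold change, 61 and 62 without siPRMT1 24 h replicate 3, and 504 and 369 without siCtrl 24 h replicate 3. Without that threshold the 399 higher and 534 lower genes at 72 h became 1058 and 1255, the 697 higher of the interaction 1123, and the 2705 and 2481 of siPRMT1 over time 4583 and 4431. The 507 lower genes of the interaction ran from 305 to 1005 with 1 library left out.

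Deviations of siPRMT1 and siCtrl libraries with the same replicate number had correlations of -0.0316, 0.128 and 0.216 at 24 h. At 72 h these were 0.16, 0.0788 and -0.0204. Pairs of different number ran from -0.257 to 0.214 at 24 h and from -0.181 to 0.124 at 72 h. Deviations from a mean of 3 libraries are tied to each other, so these values do not settle whether the numbers mark pairs. With the replicate block, 296 genes were called higher and 240 lower at 24 h and 426 and 548 at 72 h, the class I genes kept 0 calls, and none of their calls over time changed. Low counts limit what can be said of Psmb8, Psmb9, Tap1 on its named row, Tap2 and Nlrc5. The named row of Tap1 held 7.73% of its counts, and with its rows summed Tap1 passed the filter in the same libraries.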
